A study of Rattus norvegicus with 4 samples.

Results

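The livers described here are the 2 control livers of a rat anesthesia study, called SevoCont and DesCont in the labels. They were chosen by their labels and make up 2 of the 4 libraries, the other 2 being the livers SevoAnes and DesAnes after 6 h of anesthesia. All 4 rats were wild-type male Wistar rats, bought at 6 weeks of age and kept for at least 1 week before use, and food and water were withheld from all of them for 2 h before the experiment. The SevoCont rat inhaled 4.5% sevoflurane and the DesCont rat inhaled 6% desflurane, each with 50% oxygen, and each was sacrificed as soon as it lost consciousness, in less than 1 minute. The control livers are therefore livers after a very short exposure to a volatile anesthetic, and the agent differs between them. Tissue came from the left lateral lobe, was stored in RNAlater, and was taken at about 3 PM in all rats. Each liver is 1 rat and 1 library, so every difference between SevoCont and DesCont combines the difference between rats, agents, and libraries, which cannot be told apart, and it has no replicate check. No p-values were calculated.

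The liver secretes most plasma proteins, stores and releases glucose, makes and oxidizes fat, and clears drugs and steroids through cytochrome P450 enzymes. In rats, several of these enzymes differ between the sexes because pituitary growth hormone, released in pulses in males and more steadily in females, acts on hepatocytes through the growth hormone receptor and STAT5. Other liver genes follow the time of day, the last meal, or interferons that reach the liver.

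The unit of expression is the TPM value, which measures transcripts relative to all transcripts with a correction for their length, so that levels of different genes can be compared. Rows that share a symbol were added up, which gave 16992 genes. A gene was tested when its TPM value was higher than 2 in at least 1 control liver, and it was called different when the higher value was also more than 2-fold the lower one. The aligned sequence came to 4.59 Gb in SevoCont and 5.40 Gb in DesCont, and the median coverage of genes at 1 to 4 TPM was 4.07 and 4.21, respectively. The tables give no read counts, so counting intervals were not calculated. Both livers carried Y-linked transcripts, as the labels state for male rats: Eif2s3y was at 27.4 TPM in SevoCont and 24.4 TPM in DesCont.

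The promoters of 6 genes that differed between the control livers are shown because results further on name them: a growth hormone feedback gene, interferon-induced GTPases, and metallothioneins. The sequences are from RefSeq (GRCr8) and run 5′ to 3′ on the strand of the gene, from 250 bases before to 50 bases after its start. Capitals mark matches to the motif named for each group. Cish (chr8:116850719-116851018, plus strand) has 4 matches to the STAT motif TTCNNNGAA, which reads the same on both strands; their first bases lie at -241, -230, -136, and -119 from the start, and 8.87% of all 33469 promoters in the reference hold at least 1 match. The share was 7.02% of the 8050 tested genes with an entry, 6.25% of genes higher in DesCont, and 9.68% of genes higher in SevoCont. Of 22 growth hormone and sex-dependent genes with an entry, Cish was the 1 with a match.
Cish: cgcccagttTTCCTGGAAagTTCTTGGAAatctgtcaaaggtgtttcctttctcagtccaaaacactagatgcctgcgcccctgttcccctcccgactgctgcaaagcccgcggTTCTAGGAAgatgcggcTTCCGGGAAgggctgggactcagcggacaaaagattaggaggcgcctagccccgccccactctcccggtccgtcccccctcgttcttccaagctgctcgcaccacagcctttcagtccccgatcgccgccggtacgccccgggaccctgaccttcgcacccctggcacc

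Igtp (chr10:42874797-42875096, plus strand), Gbp2 (chr2:234005477-234005776, plus strand), and Gbp5 (chr2:233910749-233911048, plus strand) each have 1 match to the core of the interferon-stimulated response element, searched on both strands as GAAA, any 2 bases, and GAAA again. This motif was found in 3.92% of all promoters, in 3.17% of those of the tested genes, and in 32 of the 51 tested interferon response genes with a promoter entry.
Igtp: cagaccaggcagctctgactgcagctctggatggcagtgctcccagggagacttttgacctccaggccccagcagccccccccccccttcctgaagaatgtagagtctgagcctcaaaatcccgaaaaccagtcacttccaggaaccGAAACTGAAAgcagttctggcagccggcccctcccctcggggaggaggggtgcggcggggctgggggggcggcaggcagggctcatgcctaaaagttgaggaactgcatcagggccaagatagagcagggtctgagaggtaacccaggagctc
Gbp2: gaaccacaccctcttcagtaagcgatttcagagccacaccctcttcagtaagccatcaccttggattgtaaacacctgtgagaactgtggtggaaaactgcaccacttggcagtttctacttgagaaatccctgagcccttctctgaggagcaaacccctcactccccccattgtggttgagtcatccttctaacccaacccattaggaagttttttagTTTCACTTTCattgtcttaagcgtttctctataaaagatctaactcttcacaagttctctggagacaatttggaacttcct
Gbp5: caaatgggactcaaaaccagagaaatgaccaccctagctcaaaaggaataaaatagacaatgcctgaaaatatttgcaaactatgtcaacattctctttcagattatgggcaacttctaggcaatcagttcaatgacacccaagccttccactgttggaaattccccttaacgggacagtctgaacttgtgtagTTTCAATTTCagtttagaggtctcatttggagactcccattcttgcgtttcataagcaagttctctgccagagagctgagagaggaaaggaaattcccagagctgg

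Mt1 (chr19:10832926-10833225, minus strand) has 6 matches and Mt2A (chr19:10838659-10838958, minus strand) has 4 matches, on either strand and none overlapping another, to TGCACNC or TGCGCNC, the core of the metal response element. At least 1 match was present in 24.2% of all promoters, 36.3% of those of the tested genes, 21.5% of those of genes higher in SevoCont, and 32.5% of those of genes higher in DesCont.
Mt1: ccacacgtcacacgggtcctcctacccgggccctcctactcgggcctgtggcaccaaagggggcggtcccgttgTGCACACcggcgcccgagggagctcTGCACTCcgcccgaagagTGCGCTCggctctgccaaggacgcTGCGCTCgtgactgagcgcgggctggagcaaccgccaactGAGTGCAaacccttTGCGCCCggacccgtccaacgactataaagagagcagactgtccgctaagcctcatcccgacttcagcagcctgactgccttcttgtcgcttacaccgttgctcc
Mt2A: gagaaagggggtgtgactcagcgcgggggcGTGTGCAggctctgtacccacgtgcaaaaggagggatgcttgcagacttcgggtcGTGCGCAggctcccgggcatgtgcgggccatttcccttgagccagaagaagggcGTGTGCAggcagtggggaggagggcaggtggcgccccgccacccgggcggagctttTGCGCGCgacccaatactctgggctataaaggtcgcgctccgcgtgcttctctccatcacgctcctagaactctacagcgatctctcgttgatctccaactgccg

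The abundance profile of both control livers was dominated by secreted plasma proteins. Albumin (Alb, rn6 chromosome 14, 19176275 to 19191793) was at 83368 TPM in SevoCont and 77519 TPM in DesCont, or 10.5% and 9.95% of the TPM of all annotated genes. Transferrin (Tf), which carries iron in plasma, followed with 23022 and 25582 TPM. Transthyretin (Ttr), the carrier of thyroid hormone and retinol-binding protein, was at 14531 and 14693 TPM, and fetuin A (Ahsg), an inhibitor of mineral deposition, was at 14034 and 14468 TPM. These 4 genes differed by up to 1.11-fold between the livers.

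Among the 25 most abundant genes, secreted proteins also included Serpina1, the inhibitor of neutrophil elastase, at 8889 TPM in SevoCont and 8529 TPM in DesCont, and the apolipoprotein gene Apoe at 8924 and 8143 TPM. Crp, which encodes C-reactive protein, was at 6474 and 7889 TPM, and complement C3 was at 5703 and 6407 TPM. The heme carrier gene Hpx, the retinol carrier gene Rbp4, the selenium carrier gene Selenop, haptoglobin (Hp), and the fibrinogen chain gene Fgb each lay between 4346 and 5765 TPM in both livers. Non-coding transcripts in the top 25 included Rn7sl1, the RNA of the signal recognition particle (15999.9 and 13055 TPM), Rpph1, the RNA of ribonuclease P (4944 and 5210 TPM), and rows of the ribosomal RNA locus, which differed more and are described further on.

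**Figure D1:**
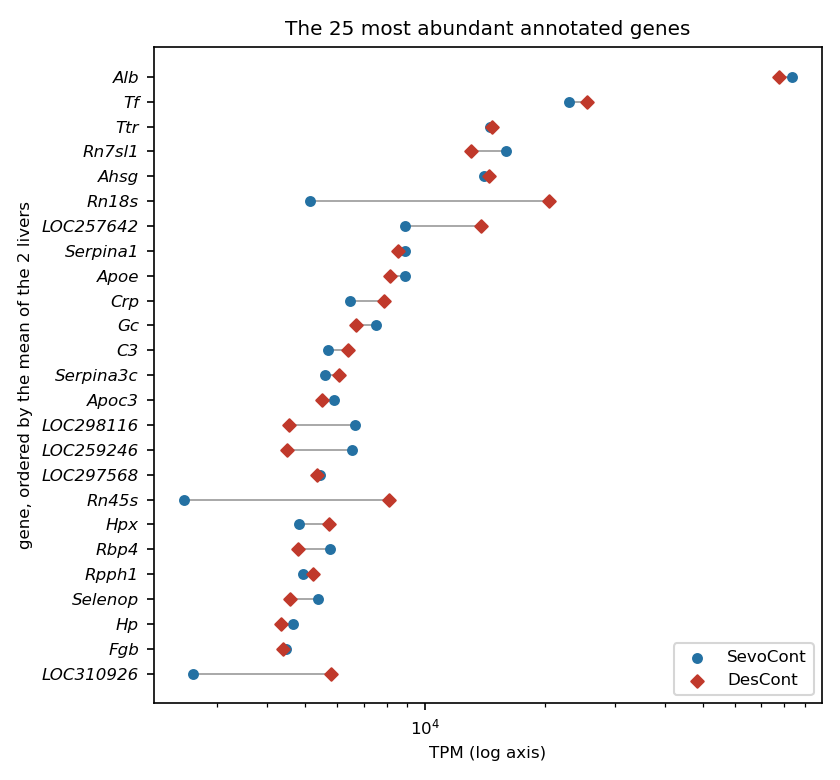
TPM values (log axis) of the 25 most abundant annotated genes in SevoCont (circles) and DesCont (diamonds), ordered by the mean of both, with a line joining the values of each gene. Alb stands apart at 83368 and 77519 TPM, and the longest lines belong to Rn18s, Rn45s, and LOC310926, all at the ribosomal RNA locus.

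The profile was concentrated in few genes. The 10 most abundant genes of each liver held 24.3% of the annotated TPM in SevoCont and 26.2% in DesCont, and the 100 most abundant held 53.0% and 54.2%. Of these 100 genes, 89 were the same in both livers, and of the 1000 most abundant, 931 were the same. TPM values higher than 2 were found for 9531 genes in SevoCont and 9572 genes in DesCont, whereas values higher than 1000 were found for 94 and 89 genes. A TPM value of 0 was listed for 3767 and 3623 genes.

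By role, plasma proteins took the largest share among the lists examined. The 79 plasma protein genes found held 32.4% of the annotated TPM in SevoCont and 31.9% in DesCont. Acute phase genes, many of which are plasma proteins too, held 6.84% and 6.93%, and cytochrome P450 genes of families 1 to 3, which oxidize drugs and steroids, held 2.52% and 2.22%. Conjugation enzymes, which attach glutathione, sulfate, or glucuronic acid, held 2.32% and 2.46%. Cytosolic ribosomal protein genes held 1.96% in each liver, enzymes of the urea cycle and amino acid breakdown held 1.51% and 1.37%, and nuclear-encoded subunits of the respiratory chain held 1.21% and 1.17%. The shares given here thus differed little between the livers, but those of some other lists differed more. Examples were the urinary protein family (3.48% in SevoCont and 1.94% in DesCont) and the glucocorticoid-responsive genes (1.03% and 0.581%), both described further on.

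Markers of hepatocytes were abundant in both samples, as the label of liver tissue states. The 10 hepatocyte markers added up to 155668 TPM in SevoCont and 150541 TPM in DesCont. Markers of Kupffer cells and macrophages added up to 944 and 750 TPM, those of stellate cells and fibroblasts to 626 and 649 TPM, and those of liver endothelial cells to 521 and 498 TPM. The sums were 36.2 and 43.2 TPM for cholangiocytes, 66.3 and 56.4 TPM for T and NK cells, and 14.1 and 8.43 TPM for B and plasma cells. Sums over lists of different size and level do not measure numbers of cells. In tissue RNA, fewer cells of a type and less RNA per cell cannot be told apart. Pancreatic acinar markers, which hepatocytes should lack, added up to 74.7 TPM in SevoCont and 17.3 TPM in DesCont. In DesCont, Cela1 alone was at 15.1 TPM, and 11 of the 17 markers found were listed at 0.

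Across the 9347 genes above 2 TPM in both control livers, 95.8% of the 9756 genes tested, the levels were close. Pearson's r of the log2 TPM values was 0.986 and Spearman's rho was 0.982, given as a description across genes, which are not independent replicates. The ratio was under 1.1-fold for 47.0% of these genes, under 1.5-fold for 94.3%, and under 2-fold for 98.8%. The median log2 ratio of DesCont over SevoCont was -0.03. The central range of the log2 ratio, from the 16 to the 84 percentile divided by 2, was 0.23. This is a spread across genes within 1 pair of libraries and not a replicate error. By mean level, the 5 to 95 percentile range was widest at both ends. It ran from -0.69 to 0.74 at 2 to 5 TPM, from -0.40 to 0.32 at 50 to 100 TPM, and from -0.92 to 0.47 above 500 TPM.

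**Figure D2:**
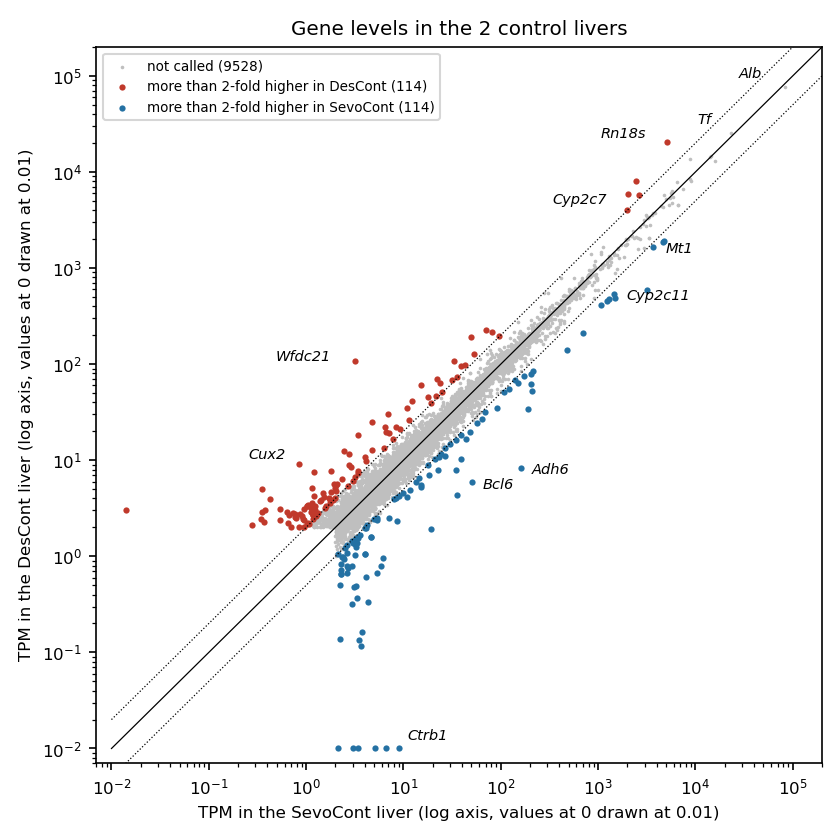
TPM values of the 9756 tested genes in SevoCont (horizontal) and DesCont (vertical), both on log axes, with values listed at 0 drawn at 0.01. The dotted lines mark 2-fold, and the colored points are the 114 genes called in each direction, which run from the ribosomal RNA row Rn18s at the top to pancreatic Ctrb1, listed at 0 in DesCont, at the bottom.

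A difference of more than 2-fold was found for 228 genes (2.34% of the genes tested), of which 114 were higher in DesCont (1.17%) and 114 were higher in SevoCont (1.17%). Most of these differences were small or at low levels. The ratio lay between 2 and 2.5 for 44 of the genes higher in DesCont and 51 of those higher in SevoCont, and the higher value was under 5 TPM for 56 and 50 genes. The higher value exceeded 100 TPM for 12 genes in DesCont and 22 genes in SevoCont. The limits fell within a continuum: 115 further genes had ratios between 1.8 and 2. Nearest to the 2-fold limit lay Dnajc24 (2.01-fold) inside and Leo1 (1.99-fold) outside among genes higher in DesCont, and Usp18 (2.004-fold) inside and Per1 (1.998-fold) outside among genes higher in SevoCont. Nearest to the TPM limit lay Zfp40 (2.01 TPM) and LOC367975 (1.98 TPM) in DesCont and Cpa1 (2.13 TPM) and Cxcr4 (1.99 TPM) in SevoCont.

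The share of called genes depended on abundance. It was 4.05% for genes with a mean between 2 and 5 TPM, between 0.936% and 1.42% in the 4 classes from 5 to 100 TPM, and 1.94% from 100 to 500 TPM. It was 7.61% (14 of 184 genes) above 500 TPM, where ratios of most genes were close to 1. The 14 genes were the ribosomal RNA rows Rn18s, Rn45s, Rn28s, and LOC310926, the P450 genes Cyp2c7 and Cyp2c11, the urinary protein rows LOC259245, Mup5, Mup4, and RGD1566134, the metallothioneins Mt1 and Mt2A, the gluconeogenic gene Pck1, and RGD1307603.

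**Figure D3:**
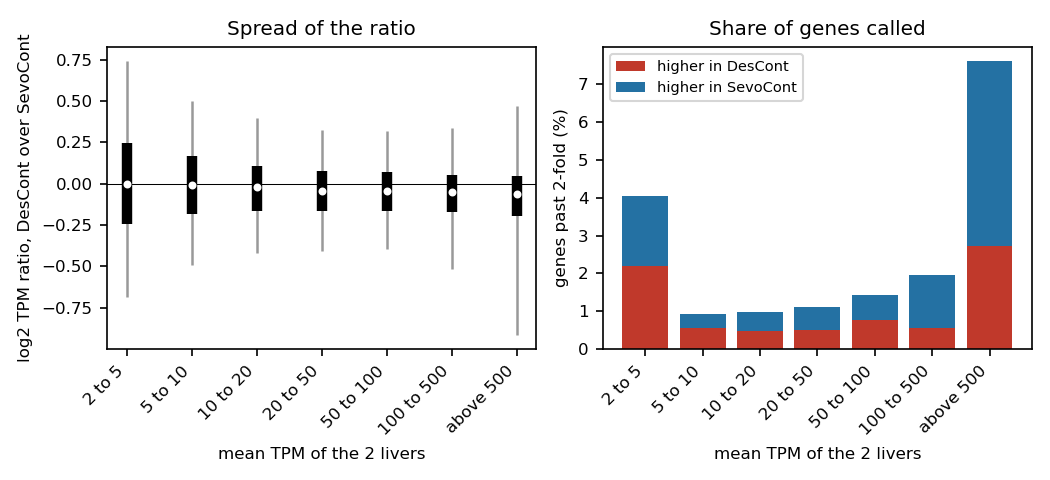
Left, log2 TPM ratio of DesCont over SevoCont in 7 classes of mean TPM, with the median (white dot), the quartiles (thick bar), and the 5 to 95 percentile range (thin line). Right, the share of genes past 2-fold in each class, stacked by direction, which is 4.05% in the lowest class, 0.936% in the next, and 7.61% in the highest.

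The ribosomal RNA locus gave the largest absolute difference. Rn18s, the 18S ribosomal RNA row (rn6 chromosome 14, 46643222 to 46645093), was at 5139 TPM in SevoCont and 20510 TPM in DesCont. Rn45s, the precursor, was at 2476 and 8093 TPM, and Rn28s was at 2039 and 5870 TPM. All rows of this kind together took 2.71% of the annotated TPM in SevoCont and 7.01% in DesCont, against 5.09% in SevoAnes and 2.44% in DesAnes. The called rows overlap each other on the strand, and the libraries were made with a kit that removes ribosomal RNA. With all rows of this kind left out and the other genes rescaled, 150 genes were higher in DesCont and 94 were higher in SevoCont.

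The genes with known growth hormone or sex dependence in rat liver had more called members than any other of the 43 lists. Of 26 genes tested, 9 were higher in DesCont and 3 were higher in SevoCont, against 1.17% in each direction of all genes. The median log2 ratio with a pseudocount of 1 TPM, the scale used for all list medians below, was 0.37, against -0.03 for all genes tested. Since the list was chosen with earlier results of these data known, its count is a description. The list pools male-biased genes, female-biased genes, and feedback genes, so its count and median do not measure a shift toward either sex. The share of 1.17% is the background for every list count below. It is taken over all genes tested and is not matched to the abundance of list members, on which the called share depended.

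Among the P450 enzymes of this list, Cyp2c12, the female-specific steroid sulfate hydroxylase (rn6 chromosome 1, 258709726 to 258766873), was at 49.996 TPM in SevoCont and 193 TPM in DesCont, a 3.85-fold difference. Cyp2c11, the male-specific counterpart (chromosome 1, 257676172 to 258004425), was at 1457 TPM in SevoCont and 544 TPM in DesCont, 2.68-fold lower, although its row overlaps that of Hells. The level of Cyp2c11 was thus above that of Cyp2c12 in both livers, while the distance between them was smaller in DesCont. Cyp2c7, which is more abundant in females, was at 1978 and 4024 TPM over a row that spans 147422999 to 148119857 on chromosome 1. The male-predominant genes Cyp2c13 (2601 and 2078 TPM) and Cyp3a2 (2599 and 1566 TPM) were lower in DesCont without passing 2-fold. Cyp4a2, a fatty acid hydroxylase that is male-predominant too, went the other way, at 71.4 TPM in SevoCont and 225 TPM in DesCont. Its row overlaps that of Cyp4a3 (80.7 and 218 TPM), and the 2 rows are not independent. The steroid dehydrogenase gene Hsd3b5 was at 150 TPM in SevoCont and 63.1 TPM in DesCont.

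Transcription factors and a cofactor were among the called members of the list. Bcl6, a repressor that is male-biased in rodent liver, was at 50.7 TPM in SevoCont and 5.87 TPM in DesCont, 8.64-fold lower. Cux2, which is female-biased in rodent liver, was at 0.837 and 9.23 TPM. Onecut1, the hepatocyte factor HNF6, was at 15.2 and 61.2 TPM, and Trim24, a nuclear receptor cofactor, was at 4.09 and 9.86 TPM. Among these 4, Bcl6 had its higher value in SevoCont and the others had theirs in DesCont.

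Feedback inhibitors of cytokine and growth hormone receptors were also higher in DesCont. Cish, whose promoter with 4 STAT motifs is printed above, was at 21.9 TPM in SevoCont and 70.0 TPM in DesCont, and Socs2 was at 38.8 and 96.4 TPM. Socs3 lay at 15.2 and 24.2 TPM, under the 2-fold limit. Prlr, the prolactin receptor, was at 1.5002 and 4.61 TPM. Genes of the signal itself were close to equal: the growth hormone receptor Ghr was at 279 and 289 TPM, Stat5b was at 34.2 and 36.9 TPM, and the secreted target Igf1 was at 932 and 1191 TPM.

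**Figure D4:**
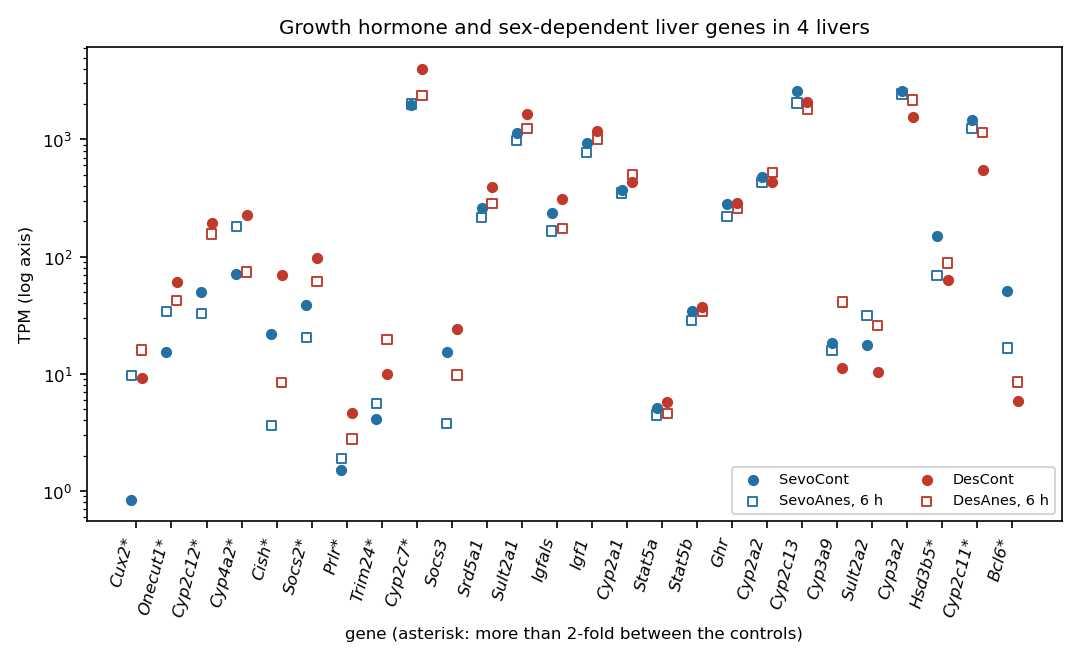
TPM values (log axis) of 26 growth hormone and sex-dependent genes in SevoCont and DesCont (filled circles) and after 6 h in SevoAnes and DesAnes (open squares), with 1 rat for each point. Genes are ordered by the difference between the controls, from Cux2 (0.837 and 9.23 TPM) to Bcl6 (50.7 and 5.87 TPM), and asterisks mark differences of more than 2-fold.

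After 6 h, these genes were found at further levels. Cish was at 3.63 TPM in SevoAnes and 8.40 TPM in DesAnes, below both controls. Cux2 was at 9.59 TPM in SevoAnes and 15.896 TPM in DesAnes. Bcl6 was at 16.6 and 8.49 TPM, between the 2 controls. Cyp2c12 was at 32.6 TPM in SevoAnes and 156 TPM in DesAnes, each below its own control. Cyp2c11 was at 1245 and 1146 TPM, nearer to SevoCont than to DesCont. Any fold change from a control to its 6 h liver contains the control's own value, and the choice of control moves the fold change of these genes by the ratio between the controls.

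The urinary protein family encodes small lipocalins that male rats secrete into urine and that depend on androgen and growth hormone. All 8 members found were lower in DesCont, 5 of them by more than 2-fold, and their sum was 27533 TPM in SevoCont and 15073 TPM in DesCont. LOC259245 was at 4756 and 1933 TPM and Mup4 at 1506 and 490 TPM. Obp3 had the largest ratio of the 8, with 209 TPM in SevoCont and 52.5 TPM in DesCont. LOC298116 was at 6660 and 4554 TPM and was not called. The median log2 ratio was -1.30. RGD1566134, which is not on the list but lies among these rows and overlaps several of them, was at 3214 and 586 TPM. The rows lie in tandem on chromosome 5 (rn6 77245141 to 77903101), overlap each other on the strand, and differ little in sequence within the family, so the level of a member is uncertain and the pairs LOC259245 and Mup5, and LOC298116 and LOC259246, had almost the same values.

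A few genes that follow feeding differed between the control livers. Pnpla3, a lipid droplet protein induced by carbohydrate, was at 2.74 TPM in SevoCont and 11.7 TPM in DesCont, a 4.29-fold difference, and Mid1ip1, an activator of acetyl-CoA carboxylase, was at 31.8 and 68.0 TPM. Of the 29 genes of fatty acid synthesis tested, 3 were higher in DesCont, both of these included, and none was higher in SevoCont. The share of all genes was 1.17% in each direction. Of the 29, 20 lay above 0, and the median log2 ratio was 0.30. Fasn, the fatty acid synthase, was at 38.3 and 63.5 TPM and was not called.

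Genes of gluconeogenesis and fasting were called in both directions. Pck1, the rate-limiting enzyme of gluconeogenesis, was at 1079 TPM in SevoCont and 414 TPM in DesCont. Igfbp1, a binding protein that insulin suppresses, was at 35.1 and 7.94 TPM, and Upp2, a uridine phosphorylase, was at 35.8 and 4.30 TPM. G6pc, which releases glucose, was at 206 and 114 TPM and was not called, nor were the abundant members Fbp1 (568 and 488 TPM), a gluconeogenic phosphatase, and Tdo2 (410 and 343 TPM), which breaks down tryptophan. In the same list, Gadd45g (43.2 and 97.6 TPM) and the mitochondrial carrier gene Slc25a25 (24.95 and 51.0 TPM) were higher in DesCont. Of 28 genes tested, 3 were thus higher in SevoCont and 2 in DesCont, against 1.17% of all genes in each direction. The median log2 ratio was -0.21.

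Among fatty acid oxidation genes and targets of PPAR alpha, Fgf21, a hormone that the liver releases in fasting, was at 12.2 TPM in SevoCont and 41.3 TPM in DesCont. It was called with Cyp4a2 and Cyp4a3, while the other 37 of 40 genes tested were not, among them the fatty acid binding protein gene Fabp1 at 1076 and 1453 TPM. Cholesterol synthesis genes were close to equal, with a median log2 ratio of 0.02 that is -0.16 with FPKM values. The sterol exporters listed with them were not: Abcg5 was at 47.9 and 19.9 TPM and its neighbor Abcg8 was at 22.7 and 7.84 TPM, both lower in DesCont.

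The metallothioneins, small proteins that bind zinc and copper and are induced by metals and glucocorticoids, were among the most abundant called genes. Mt1 was at 3640 TPM in SevoCont and 1676 TPM in DesCont, and Mt2A was at 1245 and 455 TPM. Both were higher in SevoCont, and they are neighbors on chromosome 19, with the promoters printed above. Of 23 glucocorticoid-responsive genes, 5 were higher in SevoCont (Mt1, Mt2A, Pck1, Igfbp1, and Sgk1) and 2 in DesCont (Dusp1 and Cdkn1a). Among all genes tested, the share was 1.17% in each direction. The median log2 ratio of the list was -0.19. Sgk1, a kinase that corticosteroids induce, was at 34.6 and 16.4 TPM, whereas Dusp1, a phosphatase of MAP kinases, was at 52.7 and 127 TPM.

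Neighboring alcohol dehydrogenase genes on chromosome 2 gave large ratios. Adh6 (rn6 243656579 to 243687857, plus strand) was at 162 TPM in SevoCont and 8.36 TPM in DesCont, 19.4-fold lower. Adh4 (243702035 to 243720063, plus strand), which oxidizes retinol and ethanol, was at 191 and 34.1 TPM. Adh1, the main ethanol-oxidizing enzyme, lies in the same cluster and was at 952 and 810 TPM. Hence the difference did not extend over the whole cluster. After 6 h, Adh6 was at 1.17 TPM in SevoAnes and 14.3 TPM in DesAnes, and Adh4 was at 30.1 and 55.4 TPM. SevoCont thus held the highest value of both genes among all libraries.

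Groups of called genes with starts within 200000 base pairs of each other numbered 19 and held 43 genes, and 15 groups, with 35 genes, had 1 direction. Besides the pairs already named, Akr1b7, an aldo-keto reductase (6.92 and 30.1 TPM), lay beside Akr1b8 (0.348 and 2.92 TPM). The groups include rows that overlap, and 28 of the 228 called genes overlap another annotated row on the strand.

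Of the 29 P450 genes tested in families 1 to 3, 2 were higher in each liver, against 1.17% of all genes in each direction, and the median log2 ratio was -0.12. Besides Cyp2c7, Cyp2c12, and Cyp2c11, the called gene was Cyp3a18, which was at 476 TPM in SevoCont and 142 TPM in DesCont. Cyp2e1, a pericentral enzyme that oxidizes ethanol and volatile anesthetics, was at 3361 and 2034 TPM, and Cyp1a2, also pericentral, was at 996 and 589 TPM. Neither passed 2-fold. Of 20 pericentral genes, 15 lay below 0, with a median of -0.26, and of 17 periportal genes, 11 lay below 0, with a median of -0.14, against 5353 of the 9756 genes tested. Slc1a2, a glutamate transporter (14.4 and 6.51 TPM), was called among the pericentral genes, and Pck1 among the periportal genes. Of 51 conjugation enzymes, Gstt3 (33.2 and 107 TPM) and Gstm3l (0.534 and 2.41 TPM) were higher in DesCont and none was higher in SevoCont.

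Among 35 acute phase genes, 2 were higher in DesCont and 3 were higher in SevoCont, against 1.17% of all genes in each direction. Of the called genes, Mt1 and Mt2A are given above. The 3 most abundant, Crp, C3, and Serpina3c, differed by up to 1.22-fold. Wfdc21, a small secreted protein with a whey acidic protein domain (rn6 chromosome 10, 71047326 to 71053195), was at 3.17 TPM in SevoCont and 107 TPM in DesCont, and its 33.7-fold difference was the largest among genes above 2 TPM in both livers. Lcn2, the iron-siderophore binding lipocalin 2, was at 3.44 and 18.5 TPM. Spink1, a trypsin inhibitor, was at 174 and 75.5 TPM. The median log2 ratio of the list was -0.05. In SevoAnes and DesAnes, Wfdc21 was at 25.9 and 6.43 TPM.

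Immediate early genes were called in both directions. Of 29 tested, 5 were higher in DesCont and 2 in SevoCont, against 1.17% of all genes in each direction. Jun (18.1 and 45.2 TPM), Gadd45a (8.31 and 22.1 TPM), Atf3 (0.789 and 2.53 TPM), Dusp1, and Gadd45g were higher in DesCont. Egr1, another early transcription factor, was at 24.5 TPM in SevoCont and 11.6 TPM in DesCont, and Sgk1 was higher in SevoCont too. Of 29 genes tested, 14 lay above 0 and 15 below, and the median of -0.08 turns positive when a TPM value higher than 5 is asked for.

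Clock genes differed moderately although both livers were taken at about the same hour. Arntl, which encodes the activator BMAL1, was at 1.93 TPM in SevoCont and 5.66 TPM in DesCont. Dbp, an output gene in opposite phase, was at 186 and 101 TPM, and Nr1d1, the repressor REV-ERB alpha, was at 165 and 116 TPM; neither was called. Usp2 (15.1 and 5.50 TPM) and Ciart (4.01 and 1.97 TPM) were higher in SevoCont, but Ciart was not called with median-of-ratios scaling or FPKM values. Arntl was not called with FPKM values either. The list of 19 genes had 13 below 0 and a median log2 ratio of -0.29.

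Interferon response genes were lower in DesCont by a small margin in most members. Of 64 tested, 5 were higher in SevoCont and none in DesCont, against 1.17% of all genes in each direction. Of the 64, 54 lay below 0, and the median log2 ratio was -0.28, against -0.03 for all genes. The GTPase genes Igtp (107 and 51.6 TPM), Gbp2 (30.1 and 14.7 TPM), and Gbp5 (11.8 and 4.85 TPM) act against intracellular microbes, and Usp18 (26.9 and 13.4 TPM) removes ISG15 from proteins. Usp18 was no longer called with median-of-ratios scaling. The most abundant members, Ifi27 at 445 and 417 TPM and Psme1 at 183 and 180 TPM, were nearly equal. The response element printed above was present in the promoters of 10 of 93 genes higher in SevoCont and 2 of 80 genes higher in DesCont that had an entry, against 255 of the 8050 tested genes.

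Most genes of immune cells on the lists lay on the same side. All 8 MHC class II genes tested were lower in DesCont, with a median log2 ratio of -0.69, although only Ciita, their master regulator (4.26 and 2.11 TPM), was called, and with median-of-ratios scaling it was not. Cd74, the invariant chain, was at 364 TPM in SevoCont and 213 TPM in DesCont. The median was -0.43 over 18 chemokine and chemokine receptor genes, -0.29 over 14 macrophage markers, -0.34 over 11 markers of all leukocytes, and -0.25 over 9 T and NK cell markers. Of these, 4, 2, 1, and 1 genes, in that order, were higher in DesCont. Among them were Cxcl12 (205 and 257 TPM), Itgb2 (17.3 and 18.3 TPM), and Cd4 (19.1 and 21.8 TPM). Outside these lists, immune genes were called in both directions. Ctsw (0.345 and 2.44 TPM) and Siglec5 (1.03 and 3.41 TPM) were higher in DesCont. Cd180 (8.06 and 3.92 TPM), Hcst (3.30 and 0.372 TPM), and Tlr1 (2.98 and 1.45 TPM) were among those higher in SevoCont. No marker on the macrophage list or the list of all leukocytes was called, whereas the lymphocyte markers Nkg7 (3.18 and 1.47 TPM) and Fcmr (3.17 and 1.36 TPM) were called. The complement gene C1qc was at 190 and 136 TPM and Fcer1g was at 63.0 and 38.9 TPM. The part of these markers in the interferon and MHC class II differences was not tested.

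**Figure D5:**
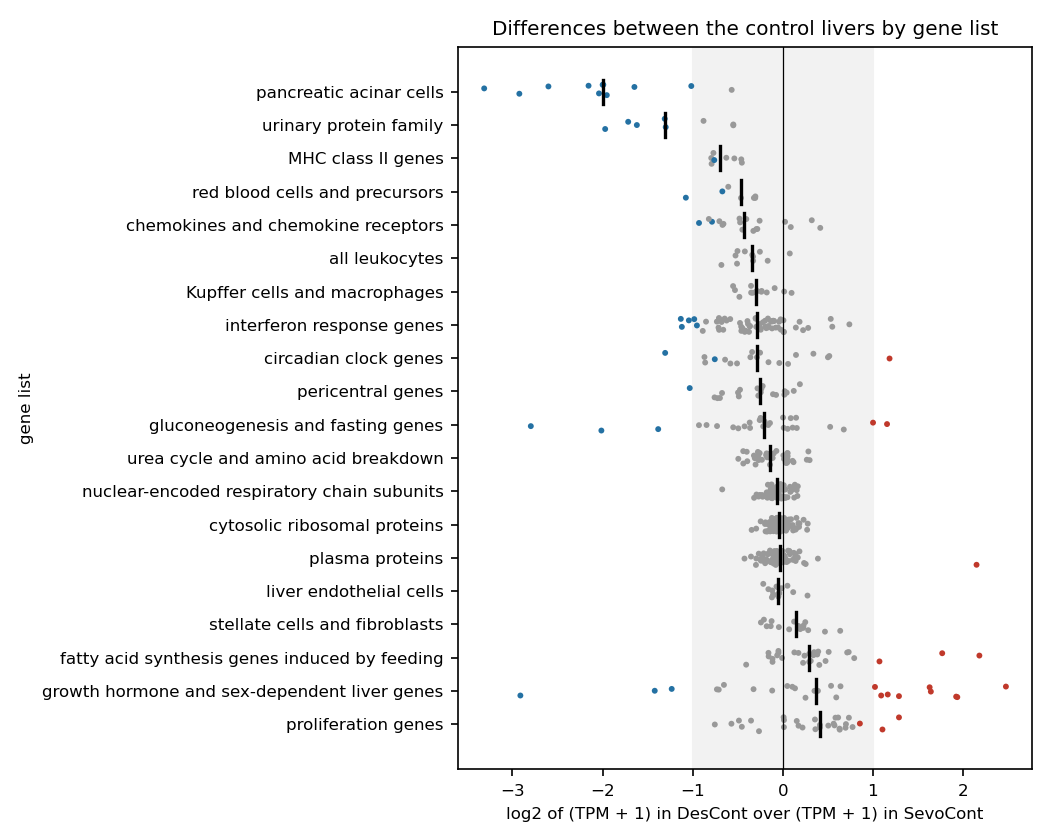
Log2 ratio of (TPM + 1) in DesCont over (TPM + 1) in SevoCont for the tested members of 20 gene lists, with 1 point for each gene, red and blue for genes called higher in DesCont and SevoCont, and a black bar at the median. Shading marks ratios under 2-fold. Of the lists drawn, pancreatic acinar markers lie farthest to the left, most of them tested only through SevoCont, and respiratory chain, ribosomal protein, and plasma protein genes lie close to 0.

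Pancreatic acinar genes, which encode digestive enzymes, were low in SevoCont and, apart from Cela1, lower still or listed at 0 in DesCont. Of 17 found, 11 were tested, and 10 of these were called. All 10 were above 2 TPM in SevoCont alone and below 1 TPM in DesCont, so the limit favors calls in that direction and the count is no measure of the list. The member not called was Cela1 at 22.8 TPM in SevoCont and 15.1 TPM in DesCont, which was not called. Chymotrypsinogen B1 (Ctrb1) was at 8.94 TPM in SevoCont and listed at 0 in the other 3 libraries. Prss1 (6.58 TPM), Prss3 (5.06 TPM), and Pnlip (3.45 TPM) were likewise listed at 0 in the other 3 libraries, and Cpa1 (2.13 TPM in SevoCont) was listed at 0 in DesCont. No fold was calculated for these genes. The remaining gene with a TPM value higher than 2 in SevoCont and 0 in DesCont was Mmd2 (3.03 TPM), which is not on this list and was at 3.56 TPM in DesAnes.

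Among the other cell types, red blood cell genes were lower in DesCont in all 7 genes tested, with Alas2, the erythroid enzyme of heme synthesis, at 13.6 and 5.93 TPM and the globin gene Hba1 at 33.1 and 26.6 TPM. No marker of liver endothelial cells (16 tested) or of stellate cells and fibroblasts (16 tested) was called, with medians of -0.05 and 0.15, the latter turning negative with FPKM values. Proliferation genes had a median of 0.41, with 24 of 30 above 0. Rrm2 (3.21 and 6.62 TPM) and Ccnb1 (1.15 and 3.62 TPM) were called. The list also holds Cdkn1a (2.91 and 8.56 TPM), which was called too but encodes an inhibitor of the cell cycle. All of these were at low levels, and the most abundant member, Ccnd1, was lower in DesCont (66.6 and 39.1 TPM).

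In several large groups, few or no genes passed 2-fold, as is the case for 2.34% of all genes. None of 79 cytosolic ribosomal protein genes was called, with a median log2 ratio of -0.04, and none of 73 respiratory chain genes was called, with a median of -0.07. Of 79 plasma protein genes, 1 was called, A1bg (0.353 and 5.01 TPM), and the median of -0.03 was 0.00014 after median-of-ratios scaling. None of 36 genes of the urea cycle and amino acid breakdown, 27 chaperone and unfolded protein response genes, or 22 NRF2 antioxidant genes was called, and lists of this size hold less than 1 call at the share of all genes. Their members were not all equal: Ephx1, an epoxide hydrolase on the NRF2 list, was at 852 and 1410 TPM.

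Of the 228 called genes, 77 were on at least 1 list, and the others include genes singled out here after their values were seen. Inmt, an N-methyltransferase of indoles, was at 19.1 TPM in SevoCont and 1.94 TPM in DesCont. Slc22a8, an organic anion transporter, was at 206 and 79.0 TPM, and Nr0b2, the corepressor SHP of bile acid signaling, was at 43.8 and 16.6 TPM. Esr1, the estrogen receptor alpha, was at 11.4 and 26.5 TPM, and Gdf15, a stress-induced cytokine, was at 2.76 and 8.91 TPM.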

How the data were processed

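Liver RNA of 4 rats was sequenced, 1 for each condition, of which the 2 control libraries are described. Per the paper's methods, the authors used sickle for trimming, HISAT2 for mapping to rn6, SAMtools for sorting, and StringTie with the refGene annotation of rn6. The labels and the paper name different kits for the libraries. The deposited tables give, for each gene, the average coverage, FPKM values, and TPM values, a signal scaled by the authors' StringTie run so that the assembled rows add up to 1000000. Annotated rows longer than 200 base pairs were used, and assembled rows, which list many of the same loci again, were not. The annotated rows kept add up to 791107 TPM in SevoCont and 778865 TPM in DesCont.

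Rows with the same symbol were added. A gene was called at more than 2-fold, without a pseudocount, with a TPM value higher than 2 in the higher liver; this is the study's rule for its own comparisons. Medians of lists used a pseudocount of 1 TPM. With 1 library for each condition no test was made. Depth was derived from the ratio of coverage to FPKM.

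The genes and 43 lists were chosen with earlier results of these data known. Genes named are the 25 most abundant, the 12 largest ratios (TPM higher than 2 in both) and 5 highest levels of each direction, the 3 most abundant and up to 10 called members of each list and direction, and genes listed at 0 in 1 control; not all of them are printed, the values of some are not reported here, and some other members of the lists are named for comparison. Motifs were searched on both strands; 173 of the 228 called genes had a promoter entry. Gene positions are those of rn6. The code that makes the calls was tested on simulated data, which does not measure how reliable the calls in these livers are. Software was Python 3.11.15 with pandas 2.3.3, numpy 2.4.6, and matplotlib 3.10.9. Alternatives covered the TPM and fold limits, a pseudocount, scaling, FPKM values, row handling, and a coverage limit.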

Additional observations from a re-analysis of the deposited data

Results flagged for a closer look

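The assembled rows, which no comparison above used, held signal outside the annotated genes. In SevoCont, 5457 assembled rows overlapped no annotated gene on either strand and took 11.4% of the TPM of all assembled rows. In DesCont, 6017 such rows took 15.02%. What these rows are was not tested.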

How the results depend on the processing

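Counts are given as genes higher in DesCont and in SevoCont, from 114 and 114. They became 1094 and 920 with no TPM limit, 187 (DesCont) with a limit of 1, 58 and 64 with 5, and 40 and 50 with 10. A fold limit of 1.5 gave 373 and 402, 3 gave 46 and 44, and 4 gave 23 and 27; a pseudocount of 1 TPM gave 73 in DesCont. FPKM values, which shift all ratios by -0.18 on the log2 scale and lie on another scale for the same limit, gave 37 and 99 (27.2% of calls higher in DesCont). Leaving out the ribosomal RNA locus, an alternative chosen after seeing the data, gave 150 and 94 (61.5% of calls higher in DesCont). Median-of-ratios scaling, rescaled annotated rows, separate rows, no length filter, a coverage of at least 5, and omission of the 30 genes with overlapping or unequal rows (also chosen after seeing the data) kept both counts within 1.5-fold. Of the list medians, those of pancreatic acinar markers became -3.94 with a pseudocount of 0.1 TPM, -1.61 with FPKM values, and -2.60 with a TPM limit of 5, and that of fat cell markers (0.49) became 0.024 with FPKM values. Of 85 called genes under the naming rule, 3 lost the call with median-of-ratios scaling (Ciart, Usp18, and Ciita) and 26 with FPKM values. Among the 26 were Cyp2c7, Prlr, Mid1ip1, Gadd45g, Slc25a25, Arntl, Atf3, Rrm2, Ccnb1, Nkg7, and Fcmr. Shares of the 10 and 100 most abundant genes moved by less than the difference between the livers. No paired analysis was possible because each group has 1 library and the labels give no replicate numbers. Single values have no replicate error, and genes under 5 TPM rest on low coverage.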
